A study of Mus musculus with 8 samples.

Results

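The data described here are the RNA levels of 8 marker genes of alveolar type 1 epithelial cells, Ager, Pdpn, Hopx, Rtkn2, Cav1, Emp2, Clic5 and Akap5, in whole mouse lung. The genes were taken by name, through the Entrez identifier of each row, from a count table of 23469 genes, and all 8 of 8 were found and had enough reads for testing in every comparison. RNA-Seq was performed on lungs of C57BL/6 wild type mice and of DDAH1-transgenic mice of the C57BL/6 background, which overexpress dimethylarginine dimethylaminohydrolase 1, an enzyme that degrades an endogenous inhibitor of nitric oxide synthase. Over 3 weeks, mice of each genotype received 3 intratracheal challenges a week, either with phosphate-buffered saline (PBS) in a volume of 50 µl or with the same volume holding 100 µg of house dust mite (HDM) extract. Lungs were taken 24 hours after the final challenge. The promoter that drives the transgene and the age and sex of the mice were not given in the sources used here. The 4 groups were wild type with PBS, wild type with HDM, DDAH1-transgenic with PBS and DDAH1-transgenic with HDM. Equal amounts of RNA from the 4 mice of a group were pooled and the pool was sequenced in duplicate, so each group has 2 libraries and every p-value below measures the spread between libraries of 1 pool, not between mice. An exact permutation test on any 1 gene could reach no p-value smaller than 0.333 with 2 libraries a group, and the tests below borrow the spread from all genes.

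Alveolar type 1 cells are the thin, flat cells that cover most of the gas exchange surface of the lung. They share a basement membrane with the capillary endothelium and are rich in caveolae. During repair they can arise from cuboidal alveolar type 2 cells, which make surfactant. None of the 8 genes is a perfect marker: Cav1 is also abundant in endothelium, Pdpn in lymphatic endothelium, and in bulk tissue fewer cells of a type and less RNA per cell cannot be told apart.

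The libraries held between 5694928 and 11929374 counted reads, and replicate 1 of the HDM-treated transgenic group was the smallest. Rn45s, a ribosomal RNA precursor, made up 8.58% (a transgenic HDM library) to 21.8% (a transgenic PBS library) of a library's reads. Levels are given as CPM, the count scaled to a common library total after TMM normalisation, a factor that makes most genes equal between libraries. Ddah1 itself was at 47.7 and 34.3 CPM in the wild type PBS libraries and at 76.9 and 53.8 CPM in those labelled transgenic, and after HDM it was at 43.1 and 44.7 CPM in wild type and at 34.9 and 33.4 CPM in the libraries labelled transgenic. Neither difference passed the test (adjusted p = 0.358 after PBS and 0.637 after HDM), and the HDM-treated libraries labelled transgenic held less Ddah1 than the wild type libraries, so the genotype labels are not checked by this gene. Xist, which is expressed from the inactive X chromosome of females, was at 11.3 to 20.8 CPM in the PBS libraries and at 2048 to 3040 CPM in the HDM libraries, while Ddx3y on the Y chromosome was at 58.7 to 69.0 CPM and at 0.179 to 0.301 CPM, respectively. HDM and the sex of the mice therefore cannot be told apart in any HDM comparison below.

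All 8 genes were well expressed, between 440 and 11080 counts in every library. Per kb of transcript, Cav1 was the most abundant member after PBS, at 331 ± 0.142 CPM per kb in wild type and 424 ± 17.3 CPM per kb in transgenic lungs (mean ± SD, n = 2), followed by Ager at 292 ± 21.6 and 366 ± 2.35 CPM per kb. Rtkn2 and Pdpn were lowest in both PBS groups, at 28.1 to 35.2 CPM per kb, and their libraries overlapped. In wild type lungs after PBS, both Emp2 libraries lay above both Clic5 libraries per kb. Hopx could not be placed against either gene, since its libraries overlapped with those of both. After HDM, Ager stood first in both genotypes, at 249 ± 24.9 CPM per kb in wild type and 356 ± 90.1 CPM per kb in transgenic lungs, but in the transgenic lungs its libraries overlapped with those of Hopx. The order depends on the length used, and the study's methods describe counting reads in coding regions. Per kb of coding sequence, Ager was the fifth of 8 in every group, at 283 to 415 CPM per kb, and Cav1 was first after HDM in wild type at 992 CPM per kb. Hopx had the highest mean in transgenic lungs after HDM, at 1353 ± 836 CPM per kb, but its libraries overlapped with those of Emp2.

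The question of the first comparison was how these genes differed between HDM-treated and PBS-treated lungs in each genotype. Akap5, Rtkn2, Clic5, Cav1 and Emp2 fell in wild type and in transgenic lungs, while the tests of Ager, Hopx and Pdpn did not pass the threshold in either genotype. In wild type lungs, 5 of 8 members fell and 0 rose, beside 2.30% of the 15123 genes tested that fell and 4.44% that rose. In transgenic lungs, 5 of 8 fell and 0 rose, beside 5.35% of 15086 genes that fell and 8.43% that rose. The median log2 fold change of the 8 members was -0.57 in wild type and -0.65 in transgenic lungs, where the median of all genes was 0.02 and 0.03. DESeq2 called the same numbers, 5 lower and 0 higher in each genotype.

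Akap5 changed most. It encodes a scaffold that holds protein kinase A, protein kinase C and calcineurin at the plasma membrane (Entrez 238276, chr12:76324617-76334517, mm10). Its level was 448 and 456 CPM in the wild type PBS libraries, 570 and 617 CPM in the transgenic PBS libraries, 135 and 163 CPM in wild type after HDM and 216 and 137 CPM in transgenic after HDM. Every HDM library lay below every PBS library, and HDM-treated lungs kept 33.0% of the PBS level in wild type (log2 fold change -1.60, SE 0.14, adjusted p = 5.54e-06) and 30.3% in transgenic mice (log2 fold change -1.72, SE 0.23, adjusted p = 0.000586).

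Rtkn2 encodes rhotekin 2 (Entrez 170799, chr10:67979566-68058429). It was at 118 and 110 CPM in wild type and 124 and 136 CPM in transgenic lungs after PBS, and at 48.2 and 60.9 CPM and 70.7 and 69.9 CPM, respectively, after HDM. The PBS and HDM libraries did not overlap. Its log2 fold change was -1.06 (SE 0.20, adjusted p = 0.00411) in wild type and -0.87 (SE 0.22, adjusted p = 0.0234) in transgenic lungs.

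Cav1 encodes caveolin-1, the coat protein of caveolae (Entrez 12389, chr6:17306335-17341328). The wild type PBS libraries held 835 and 834 CPM and the transgenic PBS libraries 1099 and 1038 CPM, against 511 and 548 CPM in wild type and 425 and 522 CPM in transgenic lungs after HDM. Cav1 fell to 63.4% of the PBS level in wild type (log2 fold change -0.66, SE 0.11, adjusted p = 0.00194) and to 44.9% in transgenic lungs (log2 fold change -1.15, SE 0.17, adjusted p = 0.00103).

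Clic5, a chloride intracellular channel family protein associated with the cortical actin cytoskeleton (Entrez 224796, chr17:44134762-44280169), was at 928 and 892 CPM in wild type and 1106 and 1103 CPM in transgenic lungs after PBS, and at 583 and 557 CPM and 657 and 627 CPM after HDM. Its log2 fold change was -0.68 (SE 0.11, adjusted p = 0.00127) in wild type and -0.76 (SE 0.16, adjusted p = 0.00802) in transgenic lungs. Emp2, a tetraspan membrane protein of epithelia (Entrez 13731, chr16:10281749-10313968), was at 553 and 662 CPM in wild type and 760 and 733 CPM in transgenic lungs after PBS, and at 424 and 440 CPM and 494 and 510 CPM after HDM. The PBS and HDM libraries of both genes were apart, and the fall of Emp2 was the smallest of the 5, at -0.49 (SE 0.12, adjusted p = 0.0293) in wild type and -0.55 (SE 0.16, adjusted p = 0.0420) in transgenic lungs on the log2 scale.

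The remaining 3 genes include the receptor and the glycoprotein by which type 1 cells are usually stained. Ager, the receptor for advanced glycation end products (Entrez 11596, chr17:34597460-34600937), was at 380 and 422 CPM in wild type and 503 and 499 CPM in transgenic lungs after PBS, and at 317 and 366 CPM and 400 and 575 CPM after HDM. In wild type the HDM libraries lay just below the PBS libraries (log2 fold change -0.23, SE 0.13, adjusted p = 0.356), and in transgenic lungs they lay on both sides of them (log2 fold change -0.02, 95% interval -0.39 to 0.35, adjusted p = 0.964). Pdpn, podoplanin, a mucin-type glycoprotein of the apical membrane (Entrez 14726, chr4:143267409-143299564), was at 44.7 and 57.5 CPM in wild type and 68.3 and 59.5 CPM in transgenic lungs after PBS and at 55.8 and 48.5 CPM and 65.9 and 64.8 CPM after HDM. Its log2 fold change was 0.03 in wild type (95% interval -0.43 to 0.49) and 0.06 in transgenic lungs (95% interval -0.44 to 0.55), so changes inside these intervals were not detectable.

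Hopx encodes a small homeodomain protein that acts without binding DNA itself (Entrez 74318, chr5:77086986-77115123). It was at 167 and 225 CPM in wild type and 411 and 297 CPM in transgenic lungs after PBS, and at 134 and 148 CPM and 426 and 167 CPM after HDM. The 2 transgenic HDM libraries, made from 1 RNA pool, differed 2.55-fold, more than the duplicates of any other member. The log2 fold change after HDM was -0.48 in wild type (SE 0.17, adjusted p = 0.123) and -0.22 in transgenic lungs (SE 0.34, adjusted p = 0.734). Without replicate 1 of the HDM-treated transgenic group the value in transgenic lungs was -1.08 (adjusted p = 0.000322), and without replicate 2 it was 0.28 (adjusted p = 0.342), so 1 library decides it. Hopx overlaps the antisense gene Hopxos, which shares 8.91% of its 50-base stretches, and the sources used here do not say whether reads were counted by strand, so its counts may include reads of that gene.

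**Figure D1:**
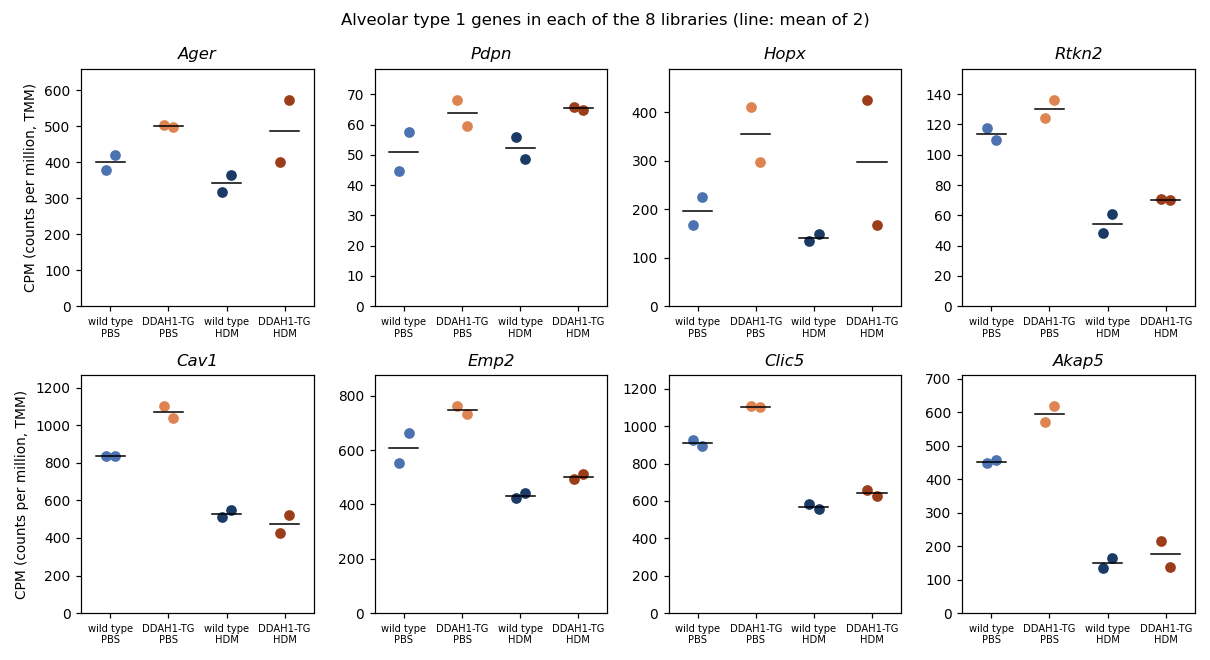
CPM (y axis, from 0) of the 8 alveolar type 1 genes in the 2 libraries of each group (points) with the mean of the group (line). Every HDM library of Rtkn2, Cav1, Emp2, Clic5 and Akap5 lies below every PBS library, while the HDM-treated transgenic libraries of Hopx are at 426 and 167 CPM.

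Across both genotypes, the 4 HDM libraries lay below the 4 PBS libraries for 5 of 8 members, beside 7.91% of 15868 genes. Leaving out either library of the PBS-treated transgenic group left 1 of 8 members past the threshold in transgenic lungs, and this was Akap5 (adjusted p = 0.0326 without replicate 1 and 0.0476 without replicate 2). Cav1 then stood at adjusted p = 0.0593 and 0.0540, with log2 fold changes of -1.12 and -1.20. Over all genes, 404 and 277 were then called, against 2079 with all libraries. Leaving out replicate 2 of the wild type PBS group moved Emp2 in wild type to -0.37 (adjusted p = 0.299).

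**Figure D2:**
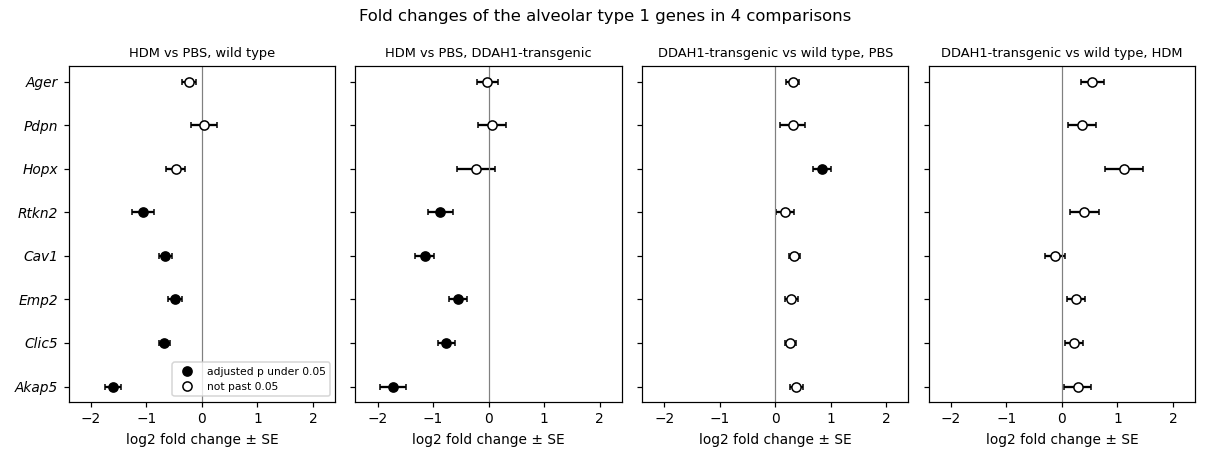
Log2 fold change (x axis) of each gene in 4 comparisons, with bars of 1 SE from edgeR; filled points passed an adjusted p of 0.05. In both HDM panels Rtkn2, Cav1, Emp2, Clic5 and Akap5 are filled and to the left of 0, and in the genotype panels Hopx after PBS is the only filled point.

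The 5 genes that fell in both genotypes have the 5 longest transcripts of the set, from 2522 bases for Cav1 to 6685 bases for Akap5, and Ager, Hopx and Pdpn have the 3 shortest, from 1261 to 1817 bases. Length also moved with the change after HDM over all genes, with a Spearman correlation between log2 fold change and transcript length of -0.126 across 14372 genes in wild type and -0.331 across 14351 genes in transgenic lungs (genes are not independent replicates). When the trend with length was taken out, 6 of 8 members were lower in wild type, beside 318 of 14372 genes. The added member was Hopx (log2 fold change -0.62, adjusted p = 0.0350). In transgenic lungs 2 of 8 remained lower, beside 455 of 14351 genes, where 807 of 15086 were lower without the offset. The 2 members were Akap5 (log2 fold change -1.29, adjusted p = 0.00375) and Cav1 (-1.18, adjusted p = 0.000994). Clic5 was at -0.37 (adjusted p = 0.139), Emp2 at -0.43 (adjusted p = 0.104) and Rtkn2 at -0.67 (adjusted p = 0.0821). In the same fit Ager was at -0.47 (unadjusted p = 0.0223, adjusted p = 0.126) and Hopx at -0.71 (adjusted p = 0.259), more negative values than those of Clic5 and Emp2. With the replicate block added Hopx was at -0.87 and passed (adjusted p = 0.0276). The replicate numbers do not pair the libraries, and Hopx was higher in replicate 1 of both transgenic groups. The block takes up that spread between duplicates, so this pass is not evidence of a fall. The median of all genes was 0.11 in the fit with the length offset. In transgenic lungs the split into 5 genes that fell and 3 that did not pass thus depends on whether length is taken into account, while Akap5 and Cav1 passed in both fits.

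**Figure D3:**
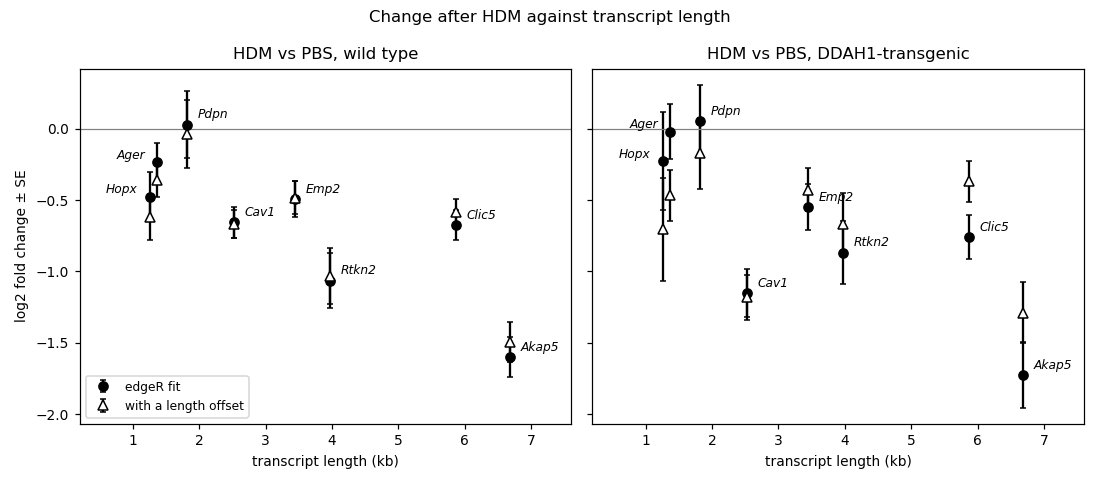
Log2 fold change after HDM with bars of 1 SE (y axis) against transcript length in kb (x axis) in wild type (left) and transgenic lungs (right); circles are the edgeR fit and triangles the fit with a length offset. With the offset Akap5 in transgenic lungs moves from -1.72 to -1.29 and Clic5 from -0.76 to -0.37, and Cav1 is near -1.2 in both fits.

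Counts relative to Ager within the same library do not depend on the scaling between libraries. Akap5 had 1.08 to 1.24 times the counts of Ager in the 4 PBS libraries and 0.238 to 0.540 times in the 4 HDM libraries. The ratio of Cav1 to Ager was 1.98 to 2.20 after PBS, 1.61 and 1.5 in wild type after HDM and 0.908 and 1.06 in transgenic lungs after HDM. For Rtkn2 it was 0.247 to 0.310 after PBS and 0.122 to 0.177 after HDM. For Clic5 and Emp2 too, the PBS and HDM libraries did not overlap, at 2.12 to 2.44 against 1.09 to 1.84 for Clic5 and 1.46 to 1.57 against 0.888 to 1.34 for Emp2. The ratio of Pdpn to Ager overlapped, at 0.118 to 0.136 after PBS and 0.113 to 0.176 after HDM, as did that of Hopx. These ratios do not take out the trend with length, and Ager has one of the 3 shortest transcripts: with the length offset, Clic5 (-0.37) and Emp2 (-0.43) were not lower than Ager (-0.47) in transgenic lungs.

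**Figure D4:**
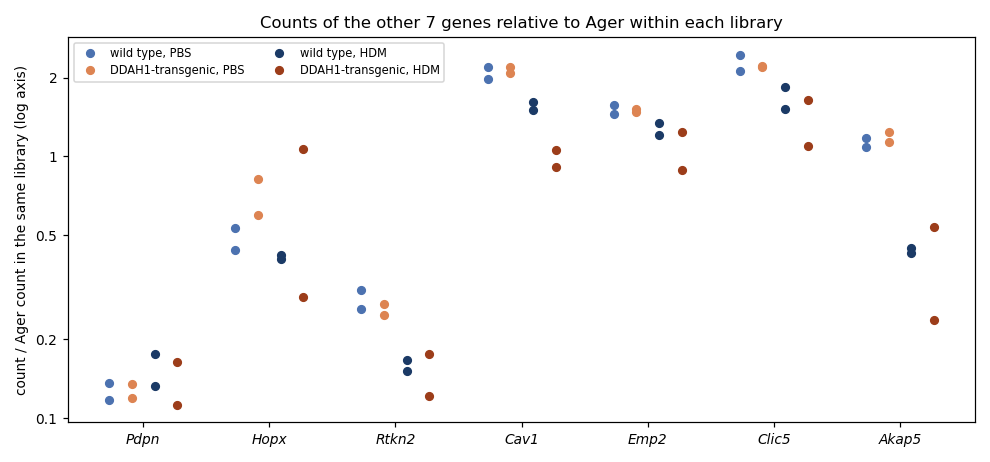
Count of each of the other 7 genes divided by the count of Ager in the same library (y axis, log scale), with 2 points per group. The HDM points of Akap5 (0.238 to 0.540) lie apart from its PBS points (1.08 to 1.24), and those of Pdpn overlap.

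The 250 bases before each listed transcription start were read to show what the members share, or do not share, beside their counts. RefSeq (GRCm38.p6) gave 9 start windows for 7 of the 8 genes, and none for Rtkn2. The windows of Ager, Akap5 and Clic5 lie inside the gene spans, which begin at 34597460, 76324617 and 44134762, respectively. They precede a start within the gene, and the bases before the outer start of these 3 genes were not read. Capitals mark the GC box GGGCGG, the binding letters of Sp1 and related factors, and the TATA box TATAAA, each searched on both strands. The windows of Akap5 (chr12:76324641-76324890, plus strand), of the upstream start of Cav1 (chr6:17306085-17306334, plus strand), of Clic5 (chr17:44188322-44188571, plus strand) and, for contrast, of Ager (chr17:34597600-34597849, plus strand) read as follows.
Akap5: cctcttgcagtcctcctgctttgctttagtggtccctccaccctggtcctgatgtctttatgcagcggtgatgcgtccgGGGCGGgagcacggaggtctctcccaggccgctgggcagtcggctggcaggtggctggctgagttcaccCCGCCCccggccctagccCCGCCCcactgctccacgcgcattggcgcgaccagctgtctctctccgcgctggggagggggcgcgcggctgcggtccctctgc
Cav1: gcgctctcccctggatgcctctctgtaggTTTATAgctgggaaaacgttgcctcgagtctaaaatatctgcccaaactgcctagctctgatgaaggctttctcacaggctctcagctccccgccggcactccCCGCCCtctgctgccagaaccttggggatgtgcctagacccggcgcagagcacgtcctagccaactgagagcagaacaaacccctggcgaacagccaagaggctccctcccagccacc
Clic5: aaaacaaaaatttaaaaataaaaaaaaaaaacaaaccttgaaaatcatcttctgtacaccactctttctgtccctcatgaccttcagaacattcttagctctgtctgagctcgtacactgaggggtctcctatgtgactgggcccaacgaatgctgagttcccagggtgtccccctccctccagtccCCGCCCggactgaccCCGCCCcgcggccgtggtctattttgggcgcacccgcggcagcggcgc
Ager: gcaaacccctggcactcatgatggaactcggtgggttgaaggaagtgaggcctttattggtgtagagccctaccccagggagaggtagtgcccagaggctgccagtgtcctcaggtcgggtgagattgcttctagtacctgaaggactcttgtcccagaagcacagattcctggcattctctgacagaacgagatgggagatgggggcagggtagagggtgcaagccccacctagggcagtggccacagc
A GC box was found in 4 of the 9 windows, those of Akap5 (3 matches), Clic5 (2), Emp2 (2) and the upstream start of Cav1 (1). It was in none of the windows of Ager, Hopx and Pdpn and not in that of the other Cav1 start. Rtkn2, which also fell, had no window. The GC box occurs in 32.7% of 32851 windows of the same length, so matches by themselves are common. Whether it goes with the fall was not tested. The letters of the TATA box were found for Cav1 alone, on the opposite strand and 221 bases before its upstream start. They occur in 12.4% of all windows, and whether they act as a TATA box there was not tested. The letters GGAATG of TEAD factors (12.6% of all windows) and CAAGTG of NKX2-1 (11.6%) were in none of the members' windows, which says only that these letters are not in these 250 bases. The Akap5 window was the richest in G and C, at 70% with 20 CpG, against a median of 52.4% and 6 CpG over all windows.

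The second question was how lungs labelled DDAH1-transgenic differed from wild type. After PBS all 8 members had a higher mean in the transgenic libraries, and the libraries of the 2 genotypes did not overlap for any of the 8, beside 19.4% of 15868 genes with both transgenic libraries above both wild type libraries. Hopx was the only member past the threshold, at 354 ± 80.6 CPM in transgenic and 196 ± 41.0 CPM in wild type lungs (mean ± SD, n = 2), a log2 fold change of 0.84 (SE 0.17, adjusted p = 0.0223). The count of 1 of 8 members higher and 0 lower stands beside 0.281% of 14926 genes that were higher and 0.375% that were lower. The other 7 members had log2 fold changes from 0.18 for Rtkn2 to 0.38 for Akap5, and their median with Hopx was 0.31, where the median of all genes was 0.00. Unadjusted p was under 0.05 for 6 of 8 members, beside 9.98% of all genes. Without replicate 1 of the wild type PBS group, Hopx was at 0.65 (adjusted p = 0.25) and 0 members passed, and without replicate 1 or replicate 2 of the transgenic PBS group 2 passed, Hopx with Akap5 (adjusted p = 0.0450) and Hopx with Cav1 (adjusted p = 0.0365), respectively. With the replicate number as a block in the fit, Hopx was not past the threshold (adjusted p = 0.177).

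Higher means after PBS were not seen in the 8 genes alone. Of the other 26 type 1 markers 22 had a positive log2 fold change, as did 10 of 11 type 2 markers and 12 of 13 blood endothelial markers, where 50.1% of all genes were positive. Markers of skeletal muscle and of cardiomyocytes also moved with the genotype after PBS. The summed level of 8 skeletal muscle genes was 42.9 and 46.4 CPM in wild type and 245 and 276 CPM in transgenic libraries. Of these, 6 of 8 were past the threshold. The sum of 7 cardiomyocyte genes was 208 and 244 CPM and 93.0 and 112 CPM, respectively, with Myh6 past the threshold. The part of such muscle RNA in the difference of the type 1 genes was not tested.

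After HDM, 7 of 8 members had a positive log2 fold change between the libraries labelled transgenic and wild type, and 0 of 8 passed in edgeR and 0 in DESeq2, beside 1.84% of 15191 genes that were higher and 0.599% that were lower. Unadjusted p was under 0.05 for 2 of 8 members, beside 16.2% of all genes: Hopx (log2 fold change 1.12, SE 0.34, adjusted p = 0.125) and Ager (0.55, SE 0.20, adjusted p = 0.197). Both depend on the duplicate used and on the trend with length, whose Spearman correlation with the log2 fold change was -0.281 across 14454 genes. With the length offset Hopx was at 0.80 and Ager at 0.25, and Clic5 moved from 0.21 to 0.44 (adjusted p = 0.195), with 0 members past the threshold. Without replicate 2 of the transgenic HDM group Hopx was at 1.64 (adjusted p = 4.13e-13) and without replicate 1 at 0.26 (adjusted p = 0.716), whereas Ager was at 0.77 (adjusted p = 0.00241) without replicate 1 and at 0.28 (adjusted p = 0.382) without replicate 2. With the replicate block Hopx was at 0.96 (adjusted p = 0.0377), but the replicate numbers do not pair the libraries. Cav1 was the member with a negative value, -0.13 (95% interval -0.47 to 0.22). For 6 of 8 members, all but Cav1 and Akap5, both transgenic libraries lay above both wild type libraries after PBS and again after HDM, beside 4.68% of 15868 genes.

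The third question was whether the response to HDM differed between the genotypes, tested as an interaction over all 8 libraries. It passed for 0 of 8 members in edgeR and 0 in DESeq2, beside 1.76% of 15868 genes, and unadjusted p was under 0.05 for 1 member, Cav1, beside 14.7% of all genes. Its interaction value was -0.52 on the log2 scale (SE 0.19, 95% interval -0.90 to -0.14, adjusted p = 0.212), and without replicate 2 of the transgenic HDM group it passed, at -0.68 (adjusted p = 0.0271). The interaction values of the other 7 members lay between -0.15 and 0.21.

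Some other markers of type 1 cells fell after HDM as well. Of 26 further markers, 9 fell and 0 rose in wild type (median log2 fold change -0.49) and 12 fell and 0 rose in transgenic lungs (median -0.78). Of all genes tested, 2.30% fell in wild type and 5.35% in transgenic lungs. Blood endothelial markers fell too, 4 of 13 in wild type and 6 of 13 in transgenic lungs. Whether the further markers fell in type 1 cells or in other cells that express them was not tested. Ahnak, a giant scaffold protein beneath the membrane, fell by 1.02 in wild type (SE 0.07, adjusted p = 5.52e-07) and by 1.44 in transgenic lungs (SE 0.15, adjusted p = 9.80e-05) on the log2 scale. Limch1, which activates nonmuscle myosin, was at -1.05 and -1.24, Timp3, an inhibitor of metalloproteinases bound to the matrix, at -0.85 and -0.81, and Vegfa, the endothelial growth factor that type 1 cells release, at -0.93 and -0.77, and these passed in both genotypes. Lmo7 at -0.95 and Scnn1b, a subunit of the epithelial sodium channel, at -1.38 were among the 6 smallest p-values in wild type. Lmo7 also passed in transgenic lungs, and Scnn1b did not. Lama3, a laminin chain of the basement membrane (-1.21, adjusted p = 0.00329), and Sema3a, a secreted guidance protein (-1.15, adjusted p = 0.00608), were among the 6 smallest in transgenic lungs. Aqp5, the water channel of the apical membrane, did not pass in either genotype, at -0.39 (SE 0.21, adjusted p = 0.341) in wild type and -0.48 (SE 0.30, adjusted p = 0.347) in transgenic lungs. With the trend in length taken out, 7 of 26 were lower in wild type and 9 of 26 in transgenic lungs. Over all genes in those fits, 318 of 14372 and 455 of 14351 were lower, respectively. Lama3 (adjusted p = 0.0861) and Sema3a (adjusted p = 0.0566) were then no longer past the threshold in transgenic lungs. Without replicate 1 or replicate 2 of the PBS-treated transgenic group, 1 and 2 of 26 passed in transgenic lungs.

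Cldn18, a tight junction claudin of alveolar epithelium, differed between the genotypes in its response. It averaged 700 CPM in wild type and 951 CPM in transgenic lungs after PBS and 606 CPM and 406 CPM after HDM, a log2 fold change of -1.21 (adjusted p = 0.000856) in transgenic lungs and an interaction of -1.02 (SE 0.20, adjusted p = 0.00867). It was 1 of 26 further markers past the threshold in the interaction, and its interaction missed the threshold without replicate 1 (adjusted p = 0.0579) or replicate 2 (adjusted p = 0.0613) of the wild type PBS group. Over all genes, 1.76% of 15868 passed the interaction, and with the length offset 3 of the 26 further markers did. Between genotypes, 0 of 26 passed after PBS and 0 of 26 after HDM in edgeR, with 13 and 4 at an unadjusted p under 0.05 (beside 9.98% and 16.2% of all genes) and with 3 and 2 called by DESeq2.

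Regulators of the type 1 fate, chiefly the Hippo pathway effectors and their TEAD partners, were lower in part. Tead1, a DNA-binding partner of Yap and Taz, averaged 578 and 729 CPM after PBS and 371 and 233 CPM after HDM in wild type and transgenic lungs, respectively. Its log2 fold change was -0.64 in wild type (SE 0.13, adjusted p = 0.00808) and -1.63 in transgenic lungs (SE 0.19, adjusted p = 0.000255), with an interaction of -1.01 (SE 0.23, adjusted p = 0.0316). Notch2, a Notch receptor, fell in both genotypes, by 0.67 and 0.81 on the log2 scale. Wwtr1, which encodes Taz, fell by 1.14 in transgenic lungs (adjusted p = 0.00324). Tead4 fell there by 1.61 (adjusted p = 0.0348) from a low level of 27.3 CPM, at which the duplicates had an SD of 12.0 CPM. In wild type lungs the mean of Tead4 was 12.3 CPM after PBS and 18.7 CPM (SD 12.1) after HDM. In all, 2 of 10 regulators fell in wild type and 4 of 10 in transgenic lungs, and 0 rose. Their median log2 fold change was -0.02 in wild type, with 4 of 10 positive, and -0.72 in transgenic lungs, with 0 positive. The shares of all genes that fell were 2.30% and 5.35%, respectively. The interaction of Tead1 was -0.56 (adjusted p = 0.299) with the trend in length taken out, and it missed the threshold without either wild type PBS library, replicate 1 of wild type HDM, replicate 2 of transgenic PBS or replicate 1 of transgenic HDM (adjusted p from 0.0503 to 0.188). Notch2 lost its call in both genotypes with length taken out (adjusted p = 0.0575 and 0.586), and without either transgenic PBS library 1 of 10 regulators, Tead1, passed in transgenic lungs, while without replicate 1 or 2 of wild type PBS 1 and 0 passed in wild type.

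The partners of caveolin-1 in caveolae moved with Cav1 in part. Cav2, which forms oligomers with caveolin-1, averaged 353 and 419 CPM after PBS and 214 and 215 CPM after HDM in wild type and transgenic lungs, and fell by 0.73 (SE 0.13, adjusted p = 0.00403) and 0.94 (SE 0.18, adjusted p = 0.00530) on the log2 scale. Cavin1, the cavin needed for caveola formation, was at 187 and 204 CPM after PBS and at 132 and 114 CPM after HDM; it fell in transgenic lungs by 0.81 (SE 0.21, adjusted p = 0.0226), and in wild type it was at -0.51 (SE 0.21, adjusted p = 0.20). Cavin2 fell in wild type by 1.11 (adjusted p = 6.79e-05), and Ehd2, an ATPase at the caveola neck, fell in transgenic lungs by 1.11 (adjusted p = 0.00862). That made 2 of 6 partners lower in wild type and 3 of 6 in transgenic lungs, beside 2.30% and 5.35% of all genes. With length taken out 1 of 6, Cav2, was lower in transgenic lungs, and without either transgenic PBS library 0 passed there.

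Markers of other cells moved with HDM beside the type 1 genes. For the counts below, 2.30% of all genes fell and 4.44% rose in wild type. In transgenic lungs 5.35% fell and 8.43% rose. The summed level of the 8 members was 3472 to 4642 CPM in the PBS libraries and 2209 to 2753 CPM in the HDM libraries. For 13 blood endothelial markers it was 5102 to 6033 CPM after PBS and 2764 to 3510 CPM after HDM, with 4 of 13 lower in wild type and 6 of 13 in transgenic lungs. For 11 type 2 markers it overlapped, at 18974 to 27284 CPM after PBS and 17063 to 22441 CPM after HDM, with 3 higher (Sftpd, Cxcl15, Sftpa1) and 1 lower (Sftpc) in wild type and with 1 higher (Sftpd) and 3 lower (Sftpb, Lpcat1, Slc34a2) in transgenic lungs. For 6 macrophage markers it was 545 to 696 CPM after PBS and 3767 to 9779 CPM after HDM, with 4 of 6 and 5 of 6 higher. Chil3, a chitinase-like protein of macrophages, had the largest change of that list, with log2 fold changes of 4.59 and 2.93, where the list's median was 1.70 and 1.35. None of these 4 lists had a gene at 0 in any library. The sum of 6 lymphatic endothelial markers was 473 to 564 CPM after PBS and 250 to 321 CPM after HDM, with 1 and 2 of 6 lower. Skeletal muscle genes summed to 203 and 206 CPM in wild type after HDM, with 7 of 8 higher than after PBS. In transgenic lungs they summed to 117 and 141 CPM, with 2 of 8 lower. The interaction passed for 6 of 8, beside 1.76% of 15868 genes. Cardiomyocyte genes summed to 126 and 123 CPM in wild type and 64.2 and 81.5 CPM in transgenic lungs after HDM. The part of RNA of these other cells in the change of the type 1 genes was not tested.

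Within a library, the members' sum was 0.164 to 0.208 of the type 2 sum after PBS and 0.119 to 0.161 after HDM, so the ranges did not overlap but were close. Against the blood endothelial sum it was 0.672 to 0.769 after PBS, 0.629 and 0.686 in wild type after HDM and 0.894 and 0.996 in transgenic lungs after HDM. Genes of the transitional state between type 2 and type 1 cells summed to 393 to 448 CPM after PBS and 595 to 698 CPM after HDM. Of 11, Lgals3, a galectin that macrophages also make, rose in both genotypes, by log2 fold changes of 1.87 and 2.69, Clu rose and the cell cycle inhibitor Cdkn1a fell in transgenic lungs, and Cldn4 was at 0 in at least 1 library.

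**Figure D5:**
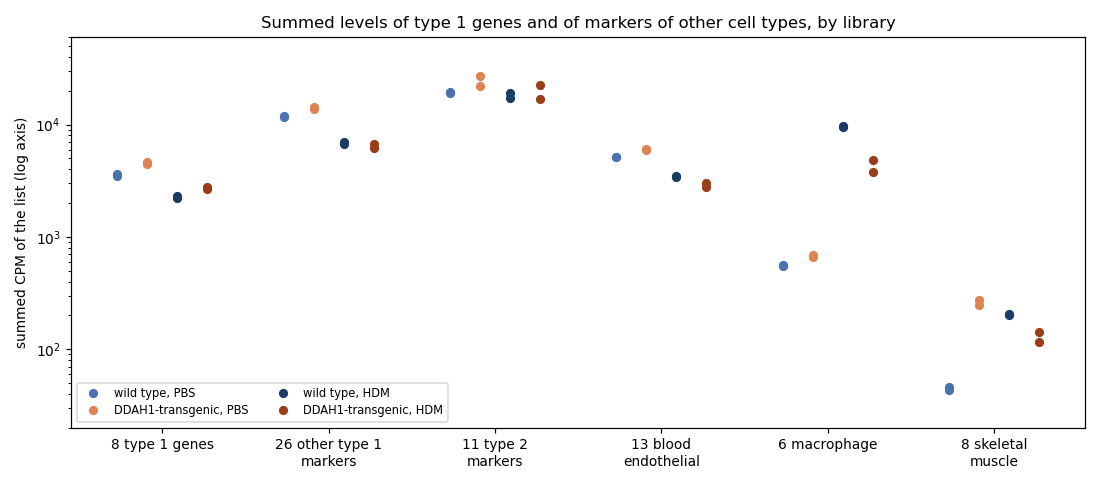
Summed CPM (y axis, log scale) of the 8 genes and of marker lists of other cells in each library, with 2 points per group. The type 1 and blood endothelial sums are lower after HDM, the type 2 sums overlap, the macrophage sum is 545 to 696 CPM after PBS and 3767 to 9779 CPM after HDM, and the skeletal muscle sum is lowest in wild type PBS libraries.

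The pattern over the 8 libraries was described by the mean of the members' standardised log2 levels, which averaged 0.168 in wild type and 1.05 in transgenic lungs after PBS and -1.0 and -0.213 after HDM. Among 9640 genes with a mean of at least 100 counts, those most like it were Chrdl1, an antagonist of bone morphogenetic proteins (Pearson's r = 0.991), Fez2 (0.973), Lmo7 (0.972), Fnbp1l, a membrane-bending protein (0.968), and Fxyd1, phospholemman (0.961). Lmo7 was also in the list of 26 further type 1 markers. These values describe 8 libraries from 4 pools that share the same scaling, and no test was made of them.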

How the data were processed

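Per the labels and the study's methods, the authors pooled lung RNA within each group, amplified it, sequenced single reads, aligned them to mm10 (GRCm38) with TopHat and deposited raw read counts per gene; the submitters' processing notes also name bcl2fastq, CASAVA 1.8 and DESeq. Whether counting used strand is not given in the sources used here. Entrez identifiers were named through a RefSeq table (GRCm38.p6), which matched 23372 of 23469 genes.

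The 4 libraries of a comparison entered its fit, and all 8 that of the interaction, with the quasi-likelihood test of edgeR 4.0.16 (R 4.3.3), TMM factors and a minimum count of 10 in filterByExpr; SEs were derived from the test statistic, and Benjamini-Hochberg adjusted p under 0.05 over all genes tested was the threshold. The alternatives were DESeq2 1.42.0, its size factors, no filter, totals without Rn45s and haemoglobin genes, all libraries in 1 fit, a replicate block, an offset for transcript length (loess, span 0.5) and each library left out. Duplicates were compared before use, and differed by more than sampling noise, with a mean chi-square per gene of 13.1 to 28.1. The fits were tested on simulated data. The 8 genes, the marker lists and the motifs were chosen with earlier results of these data known. Named are the 8 genes, up to 6 genes per list and comparison with the smallest p past the threshold, Aqp5, Cav2 and Cavin1, the 5 genes most like the members, and Ddah1, Xist and Ddx3y as checks; a few others were named after their values were seen. The 95% intervals are a normal approximation from the SE and cover the spread between libraries of a pool only.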

Additional observations from a re-analysis of the deposited data

Results flagged for a closer look

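No group was large enough for a search for single libraries far from the others, since each holds 2. In the edgeR interaction test, 6 of the type 1 genes and other alveolar markers changed by a different amount after HDM between genotypes. By list this was 0 of 8 members, 1 of 26 further type 1 markers and 1 of 10 regulators. It was also 3 of 11 type 2 markers and 1 of 11 transitional markers, beside 1.76% of 15868 genes. The values are log2 fold changes after HDM in transgenic minus those in wild type lungs. Cldn18 differed by -1.02 (SE 0.20, adjusted p = 0.00867) and Tead1 by -1.01 (SE 0.23, adjusted p = 0.0316). Of the type 2 markers, Cxcl15 differed by -0.76 (adjusted p = 0.0146), Sftpb by -0.91 (adjusted p = 0.0327) and Slc34a2 by -0.63 (adjusted p = 0.0361). Cdkn1a, of the transitional list, differed by -1.92 (SE 0.34, adjusted p = 0.00490). Between genotypes after PBS, Cdkn1a was higher in transgenic lungs (log2 fold change 1.12, SE 0.22, adjusted p = 0.0174). That difference is part of its interaction value. With 1 library left out, Cldn18 missed the threshold in 2 of 8 fits, Tead1 in 5, Cxcl15 in 4 (adjusted p up to 0.119), Sftpb in 5 (up to 0.182), Slc34a2 in 6 (up to 0.215) and Cdkn1a in 0. With the length offset Tead1 (adjusted p = 0.299) and Slc34a2 (adjusted p = 0.149) missed it. None of the 8 type 1 genes described in the report differed in this test.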

How the results depend on the processing

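The numbers of members past the threshold were recomputed under other settings, and the reason why a number moved was not tested. In the genotype comparison after PBS the number was 1; it was 2 without the filter on low counts, 0 with the replicate block, 2 with the length offset and the block, 0 with all 8 libraries in 1 fit, and 0 to 2 with 1 library left out. After HDM it was 0, and it was 1 without the filter, with the replicate block and with all 8 libraries in 1 fit, and 0 to 1 with 1 library left out. After HDM against PBS in transgenic lungs it was 5, and it was 2 with the length offset, 3 with that offset and the block, and 1 to 6 with 1 library left out. In wild type 5 stayed within 4 to 6 under all settings run, and for the interaction 0 became 1 at most with 1 library left out. Pdpn changed sign with the length offset, to -0.039 in wild type and -0.17 in transgenic lungs, and with the offset and the block to -0.031 and -0.17. With 1 library left out, Akap5 between genotypes after HDM ranged from -0.10 to 0.58, and after HDM against PBS Pdpn ranged from -0.14 to 0.21 in wild type and -0.043 to 0.15 in transgenic lungs, Ager from -0.31 to 0.20 and Hopx from -1.08 to 0.28 in transgenic lungs. Where a group was left with 1 library, that library was assumed to vary like the others.

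Counts over all genes moved by over 1.5 times under some settings. After PBS, 98 genes differed between genotypes, 222 with DESeq2, 306 without the filter, 45 with the replicate block and 253 with the block and the length offset. After HDM they were 370, 921 with DESeq2, 1055 without the filter, 625 with the block, 167 with the length offset and 771 with all libraries. In wild type 1020 became 1588 without the filter, in transgenic lungs 2079 became 1376 with the length offset, and for the interaction 279 became 689 with DESeq2 and 675 without the filter. With 1 library left out these counts ranged from 75 to 432, 6 to 1595, 652 to 1661, 277 to 2676 and 138 to 721, respectively. The replicate numbers did not pair the libraries, since the correlations of same-numbered deviations between groups lay between -0.02 and 0.03. The smallest library, with 5694928 counts, still held 440 or more for each member; other depths were not tried.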
